A study of Mus musculus with 8 samples.

Results

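The genes described here are 46 genes of the interferon response and of antigen presentation by MHC class I, measured in the epididymal white fat of male mice with and without a conditional knockout of aromatase. They comprise 37 interferon-induced genes and 9 genes of class I antigen processing, taken by symbol and found among the 34866 genes of the deposited table by Ensembl identifier. All 46 were found, and 40 of them (31 interferon-induced and all 9 class I genes) passed the filter on low counts and were tested among 12480 genes. RNA of epididymal fat was sequenced from 3′ ends by BRB-seq, a bulk method that pools barcoded samples early, in 4 control and 4 knockout libraries. The controls were Aromatase flox/flox, with loxP sites around part of both copies of the aromatase gene Cyp19a1. The knockouts were aP2-Cre;Aromatase flox/flox and carried in addition a Cre recombinase driven by the aP2 (Fabp4) promoter. Both groups thus shared the floxed alleles, and a group with the Cre transgene alone was not analysed here, so the transgene and the deletion cannot be told apart. The aP2 promoter is known to be active in adipocytes and also in some macrophages and other cells. The age of the mice is not given in the sources used here.

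Interferons are secreted proteins that signal through receptors on the cell surface, Janus kinases and STAT proteins. A complex that holds STAT2 and IRF9 binds the interferon-stimulated response element (ISRE) of many genes for antiviral proteins, and gamma interferon acts through the gamma-activated site (GAS). The class I pathway cuts cytosolic proteins in the proteasome, moves the peptides into the endoplasmic reticulum through the TAP transporter and loads them onto a heavy chain paired with beta-2-microglobulin. Its genes respond to interferons but are also expressed at rest in most nucleated cells, fat cells and fat-resident macrophages among them.

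Library totals were 1538427 to 3053565 estimated counts, the lowest being control replicate 4, so that a count of 0 allowed up to 0.984 to 1.92 CPM (the count scaled to a common TMM-adjusted library size, which assumes most genes are alike in the groups). The tested members had mean counts per library of 10 to 6077, with a median of 75. The tissue label was checked with 10 adipocyte markers, which summed to 37500 to 50200 CPM in control and 30600 to 48200 CPM in knockout libraries, and with 7 epididymis markers, which summed to at most 8.53 CPM, with Lcn5, Crisp1 and Lcn8 at 0 in every library. The targeted gene Cyp19a1 had 0.6997, 0.418, 2.25 and 0.641 CPM in the control libraries and 0, 1.61, 0.807 and 0.522 CPM in the knockout libraries, too low to be tested across genes. Of the knockout libraries 3 lay inside the range of the controls and 1 was at 0 (two-sided exact permutation test, p = 0.629, where 4 against 4 cannot go below 0.0286), so the deletion could not be checked at this depth. Which part of the gene was flanked is not given in the sources used here, and reads of 3′ ends need not come from it.

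The sequences below are shown because they hold the DNA element for which the interferon-induced genes are known. They are stretches of the RefSeq promoter table of assembly GRCm38.p6, which runs from 250 bases before to 50 bases after each annotated start and held 35 of the 46 members (27 interferon-induced, 8 class I). Each is written 5′ to 3′ on the gene's own strand, and capitals mark a match to the ISRE core (GAAA, any 2 bases, GAAA) on either strand, overlapping matches included.
Isg15 promoter, chr4:156200860-156200911, minus strand: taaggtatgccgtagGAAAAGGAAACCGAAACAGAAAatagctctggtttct
Ifit1 promoter, chr19:34640770-34640828, plus strand: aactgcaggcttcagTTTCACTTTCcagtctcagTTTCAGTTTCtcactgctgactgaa
Bst2 promoter, chr8:71537572-71537617, minus strand: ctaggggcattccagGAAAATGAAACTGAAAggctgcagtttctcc
Gbp2 promoter, chr3:142620589-142620628, plus strand: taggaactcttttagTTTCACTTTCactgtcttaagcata
Igtp promoter, chr11:58199507-58199546, plus strand: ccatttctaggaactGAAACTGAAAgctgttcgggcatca
Trim30a promoter, chr7:104465205-104465244, minus strand: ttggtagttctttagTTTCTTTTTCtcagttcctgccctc
Stat2 promoter, chr10:128270261-128270300, plus strand: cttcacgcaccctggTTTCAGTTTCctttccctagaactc
In Isg15 3 matches ran into each other, in Bst2 2 matches overlapped, and in Ifit1 2 matches on the opposite strand stood apart. At least 1 match lay in the promoters of 17 of 27 interferon-induced genes (63%), tested or not. The share was 350 of the 9467 tested genes found in the promoter table (3.7%), and 3.99% of all genes in it. All motif shares of tested genes are over these 9467. For the GAS core TTCNNNGAA the counts were 9 of 27 interferon-induced genes (33.3%) and 8.13% of tested genes. A match is a description of letters and not a binding site.

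The class I promoters differed from these in the matches they held. The ISRE core was found in 1 of 8 class I genes (12.5%), B2m, and the GAS core in 1 of 8, Psmb8. Only exact matches to these cores were counted, so a promoter without a match can still hold such an element. A kappaB-like core (GGG, any 2 bases, TT, any base, CC) on either strand was found in 3 of 8 (37.5%), namely H2-K1, H2-D1 and B2m, against 2 of 27 interferon-induced genes (7.41%) and 6.39% of tested genes. The promoters of the 2 classical heavy chain genes are shown next to each other because this stretch is nearly the same in both, with the kappaB-like match in capitals.
H2-K1 promoter, chr17:34000434-34000473, minus strand: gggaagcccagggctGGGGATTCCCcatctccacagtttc
H2-D1 promoter, chr17:35262908-35262947, plus strand: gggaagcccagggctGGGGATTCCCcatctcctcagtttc
Of these 40 bases 39 were identical, and the difference was A33T, counted from 1 at the 5′ end of the stretch with the H2-K1 base first. The B2m promoter is shown because it was the class I promoter with matches to both the ISRE and the kappaB-like core. The 250 bases before its start follow, with the ISRE core and the kappaB-like core in capitals in that order.
B2m promoter, chr2:122147437-122147686, plus strand: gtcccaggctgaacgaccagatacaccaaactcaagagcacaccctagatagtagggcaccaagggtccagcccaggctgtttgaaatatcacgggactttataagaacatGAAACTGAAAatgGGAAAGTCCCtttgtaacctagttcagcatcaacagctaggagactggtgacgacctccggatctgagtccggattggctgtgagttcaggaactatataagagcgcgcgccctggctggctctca
The plot of motif matches gives the same shares for all 3 motifs.

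**Figure D1:**
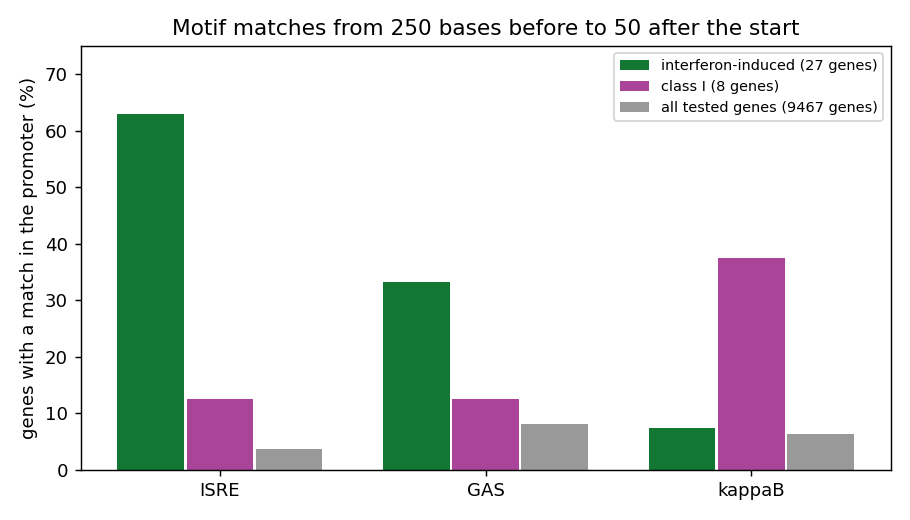
Percentage of genes whose RefSeq promoter held at least 1 match to the ISRE, GAS or kappaB-like core (y axis, percent of genes). Bars stand for the interferon-induced genes, the class I genes and all tested genes, each as far as found in the promoter table. The ISRE bar stands at 63% for the interferon-induced genes, 12.5% for the class I genes and 3.7% for all tested genes.

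None of the 40 tested members differed between knockout and control at an adjusted p under 0.05 in edgeR's quasi-likelihood test, against 21 of the 12480 tested genes (0.168%). DESeq2 and limma-voom called none of the members either. At an unadjusted p under 0.05, 2 members were higher in knockout, Eif2ak2 and Trim30a, against 3.52% of all genes, and none was lower, against 2.87%. These were also the members whose 4 knockout libraries all lay above the 4 control libraries, a pattern seen in 2.52% of all genes, while none lay wholly below, against 1.72%. Without control replicate 3 neither gene kept an unadjusted p under 0.05, without control replicate 4 or knockout replicate 3 only Eif2ak2 did, and without knockout replicate 2 only Trim30a did. The labels do not say whether the samples came from separate animals, so these tests measure the spread between the samples only.

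The log2 fold changes, knockout minus control, were centred near those of all genes. The median was 0.05 over the 31 interferon-induced genes, with 20 above 0 and 11 below, and 0.07 over the 9 class I genes, with 5 above and 4 below. Over all tested genes the median was 0.00, the quartiles were -0.16 and 0.16, and 49.7% were above 0. The interferon-induced genes ran from -0.64 (Irgm1) to 0.68 (Usp18), with 20 of 31 outside the quartiles of all genes. The class I genes ran from -0.20 (H2-K1) to 0.33 (Tap1), with 3 of 9 outside. The 95% intervals kept within a 2-fold change in either direction for 25 of 31 interferon-induced genes and for 9 of 9 class I genes, and within 1.5-fold for 11 and 6 of them. For those genes changes beyond these folds lie outside the intervals.

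**Figure D2:**
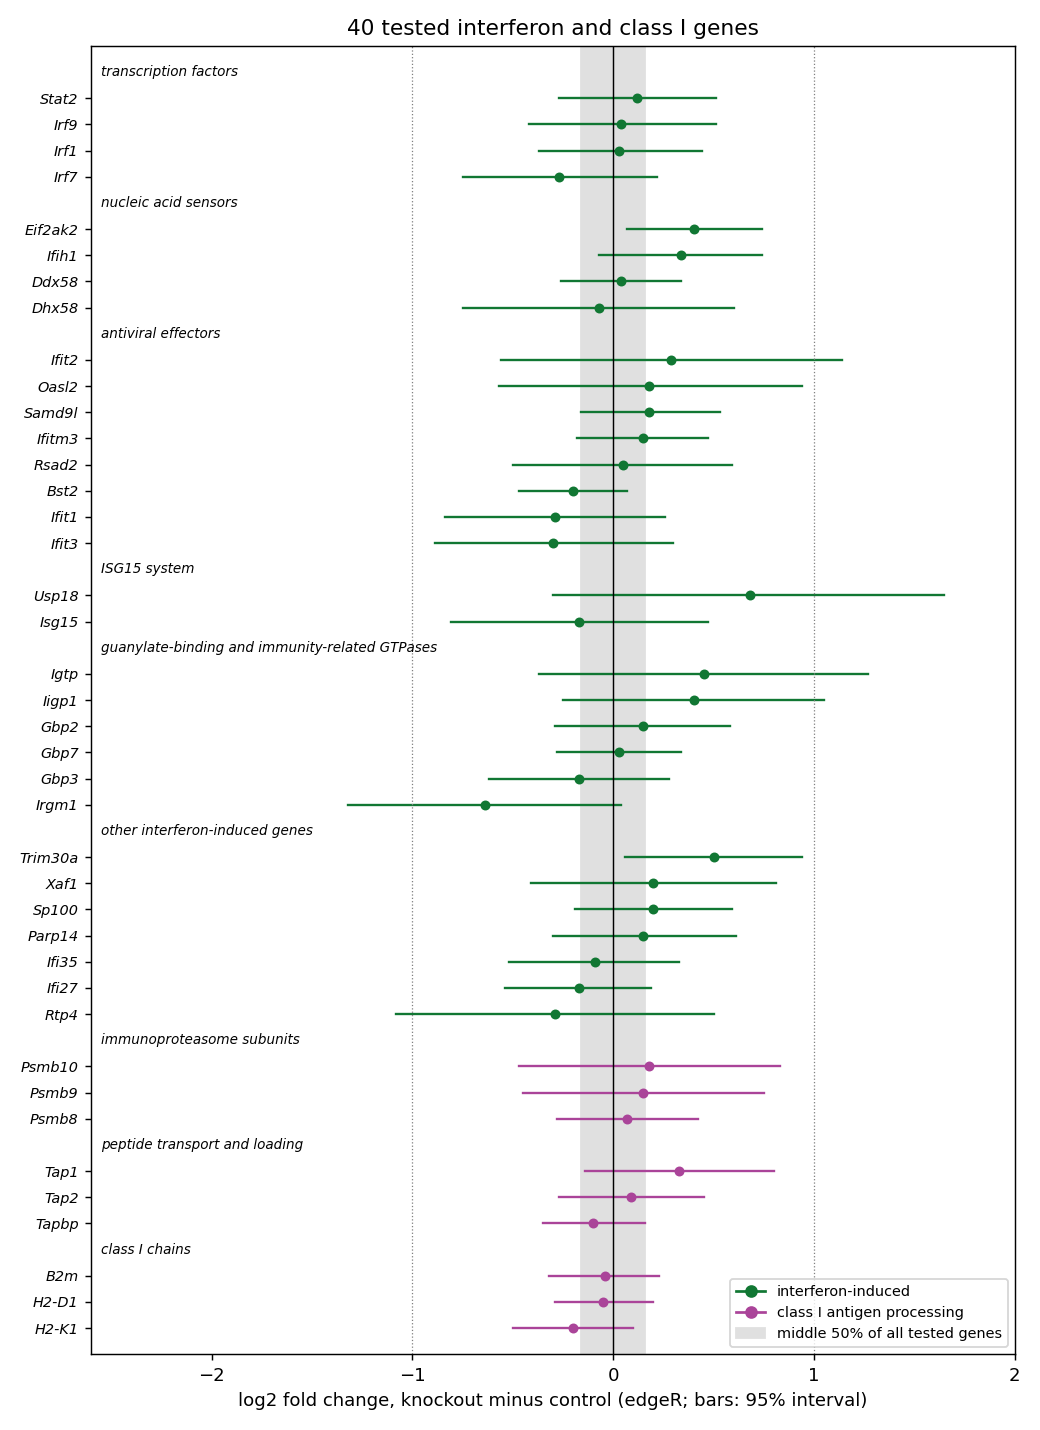
Log2 fold change, knockout minus control (x axis), of the 40 tested genes (rows, by role) with the 95% interval of edgeR as bars. All but 2 intervals, those of Eif2ak2 and Trim30a, cross 0, and the points run from -0.64 for Irgm1 to 0.68 for Usp18.

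The interferons themselves were barely detected. Of 19 listed interferon genes (the alpha, beta, epsilon, kappa, gamma and lambda families), 13 were at 0 in every library and 6 had a count in at least 1. No interferon gene had more than 1 count in any library, and their counts summed to 3 in control and 4 in knockout. With so few counts no difference between the genotypes could be measured.

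Among 6 listed receptor genes, 5 were tested, and all 5 had a log2 fold change above 0, with a median of 0.19 and no call. Ifnar1 and Ifnar2, the chains of the receptor for alpha and beta interferons, had log2 fold changes of 0.19 and 0.25. Ifngr1 and Ifngr2, the chains of the gamma interferon receptor, had 0.03 and 0.33. Ifngr2, which had the smallest p of the receptors, measured 44.4 ± 7.34 CPM in control and 55.5 ± 12.6 CPM in knockout (SD, n = 4), a difference smaller than the SD of the knockouts.

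The 4 transcription factors among the members had a median log2 fold change of 0.04. Stat2, a subunit of the ISRE-binding complex, measured 50.4, 27.9, 35.8 and 34.99 CPM in the control libraries and 44.99, 44.9, 33.4 and 40.6 CPM in the knockout libraries, a log2 fold change of 0.12 (95% interval -0.27 to 0.51, edgeR adjusted p = 0.952). Its groups overlapped, and control replicate 1 was the highest of the 8 libraries. Irf9, the DNA-binding member of that complex, and Irf1, a factor induced by gamma interferon, had log2 fold changes of 0.04 and 0.03. Irf7, which drives transcription of the interferon genes, measured 19.6, 16.3, 17.5 and 17.3 CPM in the control libraries and 16.9, 16.9, 14.7 and 10.5 CPM in the knockout libraries, a log2 fold change of -0.27 (95% interval -0.75 to 0.22, edgeR adjusted p = 0.922). Knockout replicates 1 and 2 stood inside the control range, and replicates 3 and 4 below it.

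Of 5 genes for sensors of foreign or misplaced nucleic acids, 4 were tested and 3 were above 0, with a median of 0.19. Eif2ak2 encodes the kinase PKR, which halts translation when it binds double-stranded RNA. It measured 38.5, 40.8, 29.7 and 42.7 CPM in the control libraries and 53.1, 57.3, 47.8 and 43.1 CPM in the knockout libraries. Every knockout library was above every control library, though knockout replicate 4 exceeded control replicate 4 by less than 1 CPM. The log2 fold change was 0.40 (95% interval 0.07 to 0.74, edgeR adjusted p = 0.689), a fold of 1.32.

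Ifih1 and Ddx58 encode MDA5 and RIG-I, the cytosolic helicases that recognise viral RNA and signal for interferon production. Ifih1 measured 20.6, 23.4, 18.4 and 15.4 CPM in the control libraries and 27.02, 25.4, 26 and 20.99 CPM in the knockout libraries, a log2 fold change of 0.34 (95% interval -0.07 to 0.74, edgeR adjusted p = 0.863). Of the knockout libraries 3 were above the highest control, and knockout replicate 4 was inside the control range. Ddx58 measured 41.7, 46.7, 46.5 and 44.8 CPM in the control libraries and 55.6, 41.2, 46.3 and 42.7 CPM in the knockout libraries, a log2 fold change of 0.04 (95% interval -0.26 to 0.34, edgeR adjusted p = 0.984). Knockout replicate 1 was the highest library of Ddx58, and the other 3 knockouts lay inside or just below the narrow control range. Dhx58, the regulatory helicase of the same family, had a log2 fold change of -0.07 at a low level, 7.68 ± 1.05 CPM in control and 7.24 ± 1.23 CPM in knockout (SD, n = 4).

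Of 12 antiviral effector genes, 8 were tested, 5 were above 0 and 3 below, with a median of 0.10. Bst2 encodes tetherin, which holds budding virus particles at the cell surface. It measured 59.7, 75.7, 77.1 and 64.1 CPM in the control libraries and 60.4, 60.5, 57.8 and 62.3 CPM in the knockout libraries. The knockout libraries were tightly grouped and control replicates 2, 3 and 4 were above all of them, while control replicate 1 stood inside their range, giving a log2 fold change of -0.20 (95% interval -0.47 to 0.07, edgeR adjusted p = 0.899). Ifitm3, a membrane protein that hinders the fusion of viruses with endosomes, measured 262, 185, 218 and 185 CPM in the control libraries and 189, 265, 206 and 280.4 CPM in the knockout libraries, a log2 fold change of 0.15 (95% interval -0.18 to 0.47, edgeR adjusted p = 0.939). Both groups of Ifitm3 held a mix of low and high libraries and overlapped almost fully.

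The remaining effectors spread on both sides of 0. The interferon-induced proteins with tetratricopeptide repeats, which bind viral RNA or limit its translation, were divided, with log2 fold changes of -0.29 for Ifit1, 0.29 for Ifit2 and -0.30 for Ifit3. Ifit3 shares 1060 of its 1715 words of 31 bases with its copy Ifit3b, so its counts are uncertain. Oasl2, of the oligoadenylate synthetase family, had 0.18, Rsad2 (viperin) had 0.05 and Samd9l, a gene that restrains virus replication and cell growth, had 0.18. Every interval of these 6 genes included 0.

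Isg15 is a ubiquitin-like protein attached to other proteins after interferon, and Usp18 removes it and damps signalling at the receptor. The 2 genes stood on opposite sides of 0 without passing the test. Isg15 measured 11.2 ± 2.98 CPM in control and 10.1 ± 2.405 CPM in knockout (SD, n = 4), a log2 fold change of -0.17 (95% interval -0.81 to 0.47, edgeR adjusted p = 0.962). Usp18 measured 4.89, 2.93, 2.69 and 1.28 CPM in the control libraries and 4.12, 6.86, 4.27 and 4.59 CPM in the knockout libraries, the highest point estimate of the members, 0.68 (95% interval -0.30 to 1.65, edgeR adjusted p = 0.9096). It rests on few counts, and control replicate 1 was above 3 of the 4 knockout libraries.

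The 6 GTPase genes, which act against parasites and bacteria inside cells, had a median of 0.09 and the widest range of log2 fold changes of these role groups. Irgm1, a regulator of the immunity-related GTPases, measured 16.3, 17.8, 21.98 and 7.75 CPM in the control libraries and 10.1, 7.15, 9.53 and 13.98 CPM in the knockout libraries. The groups overlapped because control replicate 4 was as low as the knockout libraries and knockout replicate 4 was higher than the others, and the log2 fold change was -0.64 (95% interval -1.32 to 0.04, edgeR adjusted p = 0.812). Iigp1, an effector of the same family, measured 30.2, 25, 38.1 and 15.9 CPM in the control libraries and 18.8, 37.4, 49.6 and 39.5 CPM in the knockout libraries, a log2 fold change of 0.40 (95% interval -0.25 to 1.05, edgeR adjusted p = 0.917). Its groups overlapped, with control replicate 4 the lowest and knockout replicate 3 the highest library. Igtp, another regulator, had a log2 fold change of 0.45, and its interval of -0.37 to 1.27 reached past a 2-fold increase.

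The guanylate-binding proteins coat the membranes around pathogens, and the genes of the 3 members lie together on chromosome 3. Gbp2 measured 41.2, 38.9, 65.03 and 37.8 CPM in the control libraries and 37.1, 49.2, 51.6 and 63.95 CPM in the knockout libraries, a log2 fold change of 0.15 (95% interval -0.29 to 0.58, edgeR adjusted p = 0.949). Control replicate 3 and knockout replicate 4 were the 2 highest libraries, so each group reached as high as the other. Gbp7 measured 65.7, 51.5, 62.3 and 46.8 CPM in the control libraries and 49.1, 61.9, 62.4 and 58.7 CPM in the knockout libraries, a log2 fold change of 0.03 (95% interval -0.28 to 0.34, edgeR adjusted p = 0.989), and its knockout libraries lay inside the control range. Gbp3 had a log2 fold change of -0.17.

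Of the 8 other interferon-induced genes 7 were tested, with 4 above 0, 3 below and a median of 0.15. Trim30a encodes a tripartite motif protein that restrains Toll-like receptor signalling, and it was the only gene of this group whose libraries did not overlap. It measured 18.9, 16.7, 12.1 and 13.3 CPM in the control libraries and 21.5, 21.4, 23.3 and 21.2 CPM in the knockout libraries. All 4 knockout libraries lay above the highest control, control replicate 1, and within a narrow range, and the log2 fold change was 0.50 (95% interval 0.06 to 0.94, edgeR adjusted p = 0.701), a fold of 1.42.

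Ifi27, a small membrane protein strongly induced by interferons, measured 489, 496, 633 and 372 CPM in the control libraries and 397, 371, 428 and 567 CPM in the knockout libraries, a log2 fold change of -0.17 (95% interval -0.54 to 0.19, edgeR adjusted p = 0.935). Control replicate 3 and knockout replicate 4 were the highest and the groups overlapped. Below 0 were also Ifi35, at -0.09, and Rtp4, at -0.29. Above 0 were Xaf1, which promotes cell death, at 0.20, Parp14, an ADP-ribosyltransferase, at 0.15, and Sp100, a nuclear body protein, at 0.20. No interval of these 5 genes excluded 0.

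**Figure D3:**
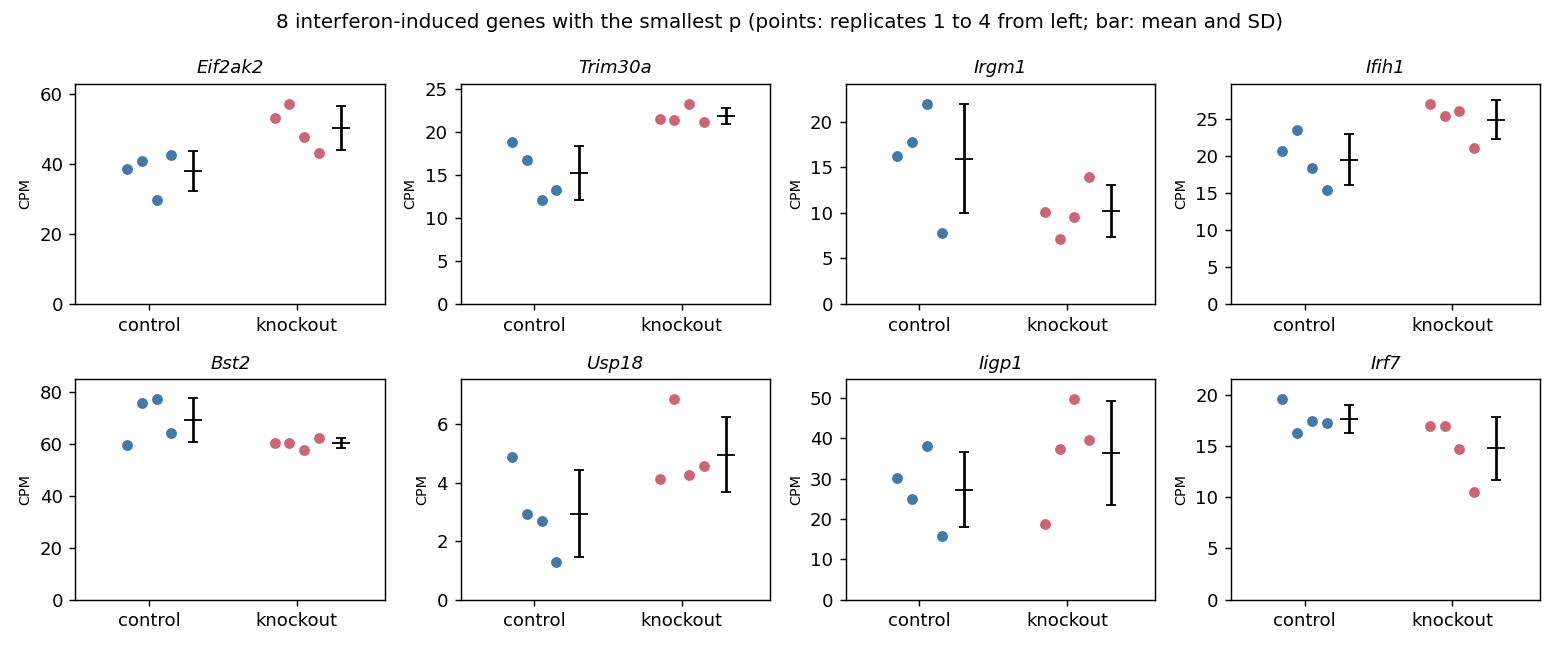
Level in CPM (y axis, linear from 0) of the 8 interferon-induced genes with the smallest p in each control and knockout library (points, replicates 1 to 4 from left to right), with the group mean and SD as bars. The knockout points of Eif2ak2 and Trim30a lie above all their control points, and the groups of the other 6 genes overlap.

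The 6 members that did not pass the filter were Zbp1, Oas1a, Oas2, Mx1, Mx2 and Ifi44, all interferon-induced. Zbp1, a sensor of Z-form nucleic acids, had 4.74 ± 2.24 CPM in control and 2.26 ± 1.78 CPM in knockout (SD, n = 4), from 65 counts in all. Mx1 and Mx2, of a family of GTPases that block viruses, had 28 and 18 counts over the 8 libraries. Mx2 is annotated as a polymorphic pseudogene. Oas1a, Oas2 and Ifi44 had 36.7 to 54.5 counts in all. Each of the 6 means was below 5 CPM in both groups, and in each gene the groups overlapped.

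The immunoproteasome subunits Psmb8, Psmb9 and Psmb10 replace the constitutive catalytic subunits Psmb5, Psmb6 and Psmb7 when interferon is present and change which peptides are cut. All 3 had log2 fold changes above 0, with a median of 0.15, and none passed the test. Psmb8 measured 66.7, 57.7, 78.5 and 60.3 CPM in the control libraries and 56.8, 92.8, 63.6 and 63.3 CPM in the knockout libraries, a log2 fold change of 0.07 (95% interval -0.28 to 0.42, edgeR adjusted p = 0.982). Knockout replicate 2 was the highest library, and the other 3 knockout libraries lay inside or just below the control range. Psmb9 measured 33.2, 14.2, 36.3 and 24.4 CPM in the control libraries and 20.1, 30.3, 29.1 and 40.01 CPM in the knockout libraries, a log2 fold change of 0.15 (95% interval -0.45 to 0.75, edgeR adjusted p = 0.967). Psmb10 measured 54.1, 27.6, 42.6 and 17.3 CPM in the control libraries and 49.5, 38.3, 31.03 and 45.6 CPM in the knockout libraries, a log2 fold change of 0.18 (95% interval -0.47 to 0.83, edgeR adjusted p = 0.957). Psmb9 was lowest in control replicate 2 and highest in knockout replicate 4, and in Psmb10 the lowest and the highest library were both controls.

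The constitutive counterparts had log2 fold changes below 0, and none passed the test. Psmb5 measured 124, 119, 123 and 128 CPM in the control libraries and 113, 108, 107 and 106 CPM in the knockout libraries, a log2 fold change of -0.18 (95% interval -0.40 to 0.03, edgeR adjusted p = 0.833). All 4 knockout libraries of Psmb5 were below all 4 controls, although 71.7% of its words of 31 bases occur in other genes of the annotation, most of them in Gm3375. Psmb6 measured 164, 157, 159.7 and 154 CPM in the control libraries and 149, 160.2, 145 and 127 CPM in the knockout libraries, a log2 fold change of -0.13. Psmb7 measured 172, 142, 174 and 138 CPM in the control libraries and 148, 139, 157 and 168 CPM in the knockout libraries, a log2 fold change of -0.03, and both overlapped between groups.

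The balance within each pair was also compared, as the CPM of the immunoproteasome subunit in percent of its own and its counterpart's CPM. This percentage compares libraries and not the amounts of the 2 transcripts. For Psmb8 with Psmb5 it was 34.7 ± 3.08% in control and 38.6 ± 5.33% in knockout (SD, n = 4, two-sided exact permutation p = 0.314). For Psmb9 with Psmb6 it was 14.3 ± 4.5% and 17.1 ± 5.04% (exact permutation p = 0.457), and for Psmb10 with Psmb7 17.8 ± 5.43% and 21.1 ± 3.5% (exact permutation p = 0.343). Over the 3 pairs the Benjamini-Hochberg adjusted p was 0.457 for each, and each difference was smaller than the larger SD of its 2 groups.

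Tap1 and Tap2 form the peptide transporter, and Tapbp (tapasin) bridges it to the class I molecule. Tap1 measured 21.3, 20.5, 21.5 and 12.8 CPM in the control libraries and 19.2, 30.3, 26.8 and 20.6 CPM in the knockout libraries. Its controls 1 to 3 were nearly equal and control replicate 4 was far below them. Knockout replicates 2 and 3 were above all controls and replicates 1 and 4 were not, and the log2 fold change was 0.33 (95% interval -0.14 to 0.80, edgeR adjusted p = 0.9096). Tap2 measured 31.8, 37.2, 39.9 and 28.9 CPM in the control libraries and 31.6, 45.6, 37.6 and 32.5 CPM in the knockout libraries, a log2 fold change of 0.09 (95% interval -0.27 to 0.45, edgeR adjusted p = 0.967), with knockout replicate 2 highest and control replicate 4 lowest. Tapbp measured 239.8, 234, 256 and 184 CPM in the control libraries and 215, 219.9, 198 and 222 CPM in the knockout libraries, a log2 fold change of -0.10 (95% interval -0.35 to 0.16, edgeR adjusted p = 0.943). All knockout libraries of Tapbp lay inside the control range.

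The class I chains were close to equal in the genotypes, with all 3 log2 fold changes below 0, a median of -0.05 and intervals within a 1.5-fold change. B2m, the light chain shared by all classical class I molecules, measured 2674, 2765, 2617 and 2023 CPM in the control libraries and 2416, 2271, 2282 and 2813 CPM in the knockout libraries. The highest and the lowest of the 8 libraries were knockout replicate 4 and control replicate 4, and the log2 fold change was -0.04 (95% interval -0.32 to 0.23, edgeR adjusted p = 0.982). The heavy chain H2-D1 measured 905, 822, 826 and 722 CPM in the control libraries and 798, 877, 748 and 748 CPM in the knockout libraries, a log2 fold change of -0.05 (95% interval -0.29 to 0.20, edgeR adjusted p = 0.982), with the knockout values inside the control range. The heavy chain H2-K1 measured 1103, 745, 997 and 840.4 CPM in the control libraries and 822, 925, 705 and 758 CPM in the knockout libraries, a log2 fold change of -0.20 (95% interval -0.50 to 0.10, edgeR adjusted p = 0.9096), and the 2 highest libraries were controls while the lowest was a knockout. H2-K1 and H2-D1 share 358 words of 31 bases, so reads from the shared stretches could be assigned to either.

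**Figure D4:**
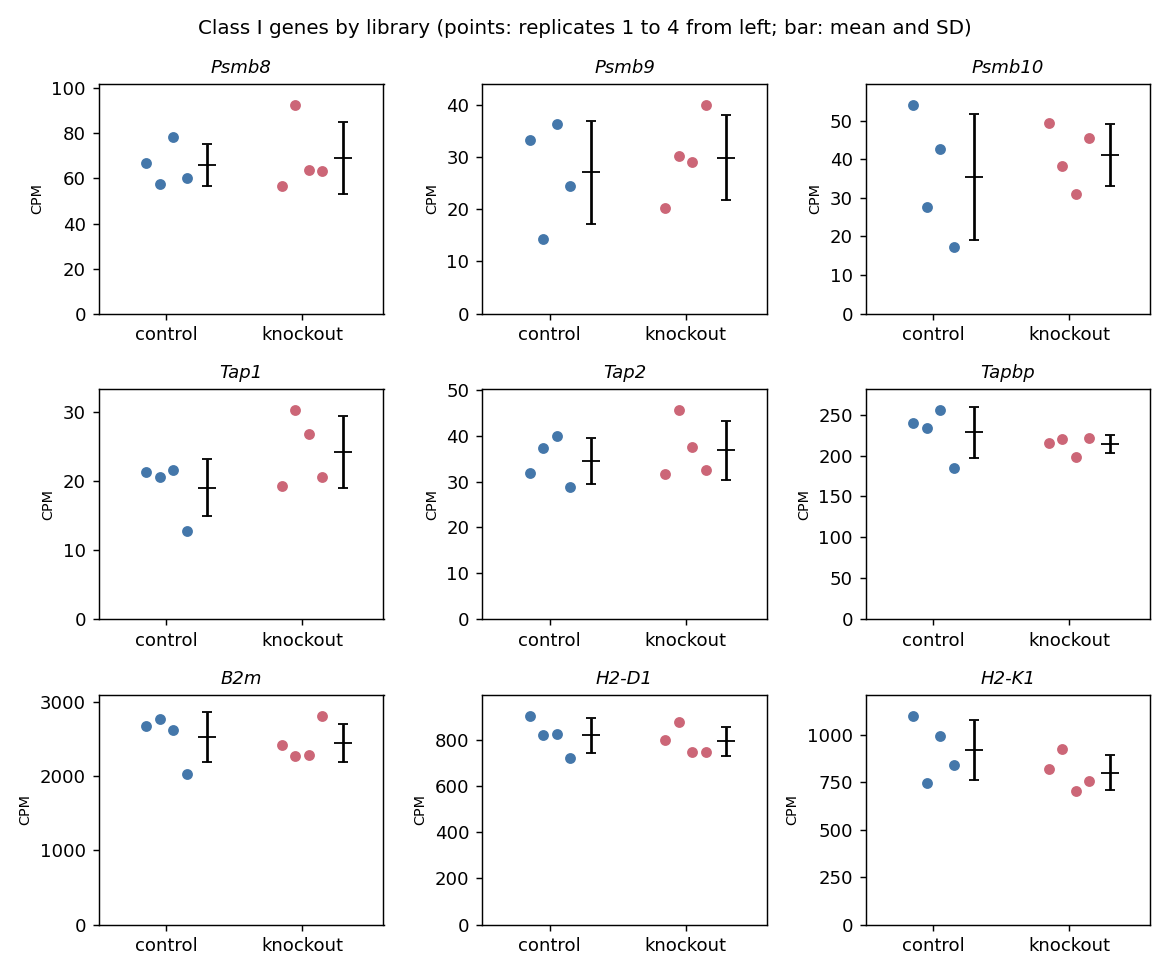
Level in CPM (y axis, linear from 0) of the 9 class I genes in each control and knockout library (points, replicates 1 to 4 from left to right), with the group mean and SD as bars. In all 9 genes the groups overlap, and control replicate 4 is the lowest of all libraries in 6 of them.

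Set against each other, the interferon-induced and the class I genes differed little in their response. The median log2 fold change of the interferon-induced genes minus that of the class I genes was -0.02. The mean log2 CPM of the 31 interferon-induced genes was 4.63 ± 0.22 in control and 4.72 ± 0.10 in knockout libraries, and that of the 9 class I genes was 7.10 ± 0.25 and 7.16 ± 0.12 (SD, n = 4). Both differences between genotypes were smaller than the spread of the controls. Within a library the former minus the latter was between -2.57 and -2.39 in all 8 libraries, at -2.46 ± 0.068 in control and -2.45 ± 0.061 in knockout. The distance between the sets thus varied less over the libraries than the mean level of either set, which ran from 4.37 to 4.87 and from 6.80 to 7.32.

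Control replicate 4, the library with the fewest counts, was the lowest control for 15 of 31 interferon-induced genes and 6 of 9 class I genes. The highest control was most often replicate 1 among the interferon-induced genes (15 of 31, and 9 of 31 for replicate 3) and replicate 3 among the class I genes (5 of 9, and 3 of 9 for replicate 1). Among the knockouts, replicate 4 was highest for 14 of 31 interferon-induced genes and replicate 1 lowest for 13 of 31, while for class I genes replicate 2 was highest for 5 of 9. Whether depth has a part in these ranks was not tested.

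Markers of macrophages, cells that express both pathways, were at a higher summed level in every knockout library than in any control. The macrophage list was chosen with earlier results of these data known, so its counts describe these data and are not independent evidence. Of 15 macrophage markers 12 were tested, and 8 were higher in knockout at an unadjusted p under 0.05, against 3.52% of all genes. At an adjusted p under 0.05 edgeR called 2, against 0.168%. The rise was not uniform: 10 log2 fold changes were above 0 and 2 below, from -0.19 (Cd163) to 1.47 (Itgax). Their summed level was 796 to 892 CPM in control and 1210 to 1480 CPM in knockout libraries, with 1 marker at 0 in some library. Markers of T and NK cells summed to 20.5 to 27.6 CPM and 16.8 to 22.8 CPM, with 7 of 14 at 0 in some library and only 1 tested. Those of plasmacytoid dendritic cells, a main source of alpha interferon, summed to 306 to 342 CPM and 316 to 331 CPM. Of these 6 markers 3 were at 0 in some library, and only 2, Tcf4 and Siglech, were tested. The sum thus rests on few genes and does not measure the number of such cells. The part of cell composition in the members' values was not tested, and in whole tissue fewer cells of a type and less RNA per cell cannot be told apart.

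**Figure D5:**
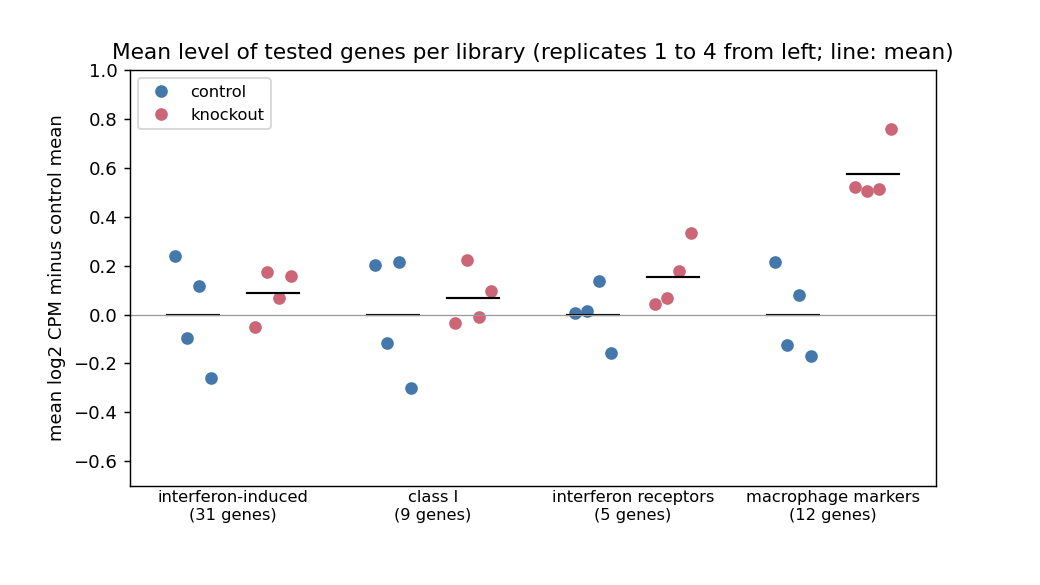
Mean log2 CPM of the tested genes in each library minus the mean of the control libraries (y axis). The sets are the interferon-induced genes, the class I genes, the interferon receptors and the macrophage markers. Replicates 1 to 4 run from left to right, with the group mean as a line. The macrophage points of the knockouts all lie above those of the controls, and the groups of the other sets overlap.

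A further 120 genes of the 2 pathways, listed as ligands, receptors, signalling, sensing and further induced or class I genes, gave a similar picture. Of these 119 were in the table and 85 were tested, with 53 above 0, 32 below and a median log2 fold change of 0.06. None passed an adjusted p of 0.05 in edgeR, and DESeq2 and limma-voom called none either. At an unadjusted p under 0.05, 3 of the 85 were higher (Samhd1, Sp110 and Irf5), against 3.52% of all genes, and none was lower, against 2.87%. The libraries did not overlap in 5 genes, with Samhd1, Sp110, Irf5 and Tyk2 higher in knockout (4 of 85, against 2.52% of all genes) and Psmb5 lower (1 of 85, against 1.72%).

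Samhd1 encodes an enzyme that degrades deoxynucleotides and so limits viruses that copy DNA. It measured 66.7, 60.05, 62.7 and 58.03 CPM in the control libraries and 80.9, 87.4, 77.7 and 94.1 CPM in the knockout libraries. Every knockout library stood clear of the highest control, and the log2 fold change was 0.45 (95% interval 0.20 to 0.70, edgeR adjusted p = 0.272), the smallest adjusted p among the pathway genes. Sp110, a nuclear body protein, measured 10.9, 7.57, 14.6 and 12 CPM in the control libraries and 18.96, 18.2, 17.5 and 20.9 CPM in the knockout libraries, a log2 fold change of 0.75 (95% interval 0.23 to 1.27, edgeR adjusted p = 0.498). Of the words of 31 bases in Sp110, 48.2% occur in other genes, most of them in Gm16026, so its counts are uncertain.

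Irf5, a transcription factor of macrophages that acts downstream of Toll-like receptors, measured 12.9, 14.7, 12.1 and 11.5 CPM in the control libraries and 17.4, 14.9, 21.7 and 24.9 CPM in the knockout libraries, a log2 fold change of 0.62 (95% interval 0.13 to 1.12, edgeR adjusted p = 0.669). Tyk2, a Janus kinase of the receptor for alpha and beta interferons, measured 18.9, 15.8, 16.7 and 15.1 CPM in the control libraries and 25.6, 22.8, 19.4 and 20.5 CPM in the knockout libraries, a log2 fold change of 0.40 (95% interval -0.01 to 0.82, edgeR adjusted p = 0.791). In both genes the lowest knockout library was only slightly above the highest control. Jak1, the kinase shared by the interferon receptors, measured 135, 139, 133 and 129.5 CPM in the control libraries and 157, 133, 153 and 185 CPM in the knockout libraries, a log2 fold change of 0.22 (95% interval -0.03 to 0.48, edgeR adjusted p = 0.816), with knockout replicate 2 inside the control range. H2-T23, a non-classical class I heavy chain, measured 63.1, 44.2, 69.9 and 38.1 CPM in the control libraries and 45.6, 37.5, 44.04 and 43.5 CPM in the knockout libraries, a log2 fold change of -0.34 (95% interval -0.73 to 0.05, edgeR adjusted p = 0.821), and its controls were split into 2 high and 2 low libraries.

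By position, 7 of the 9 class I genes lie within 1351601 bases of chromosome 17, from 33915899 to 35267499 in GENCODE M21 coordinates of GRCm38. B2m and Psmb10 lie on chromosomes 2 and 8. The interferon-induced genes were spread over 16 chromosomes, with Ifit1, Ifit2 and Ifit3 together on chromosome 19 (34550694 to 34650009) and Gbp2, Gbp3 and Gbp7 on chromosome 3 (142530342 to 142638008). Psmb9 and Tap1 face away from each other, with RefSeq starts at 34187330 and 34187556, 226 bases apart on opposite strands of chromosome 17. Use of strand in the counting is not given in the sources used here, so reads of overlapping genes cannot be told apart. The libraries ranked differently for them, with Psmb9 lowest in control replicate 2 and Tap1 in control replicate 4.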

How the data were processed

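RNA of 8 epididymal fat samples (4 per genotype, grouped by the labels) was sequenced by BRB-seq. Per the submitters' processing notes the reads were processed with Salmon and GRCm38; versions, annotation, strand and use of molecular identifiers are not given in the sources used here. The authors deposited estimated counts per gene without normalization, and 59.6% of the values above 0 were whole. The table has 1 column per sample. Identifiers were matched without version to GENCODE M21 (34652 of 34866). Here the estimated counts were rounded and tested on all genes with edgeR 4.0.16 in R 4.3.3 (filterByExpr, TMM, robust quasi-likelihood F test, genotype only), with Benjamini-Hochberg adjustment over 12480 genes and a threshold of 0.05. The test was checked on simulated counts with planted changes of 2-fold or more and the same spread for every gene. The check does not cover smaller changes or genes of unlike spread. Intervals (95%) are approximate, from the fold change, its standard error and edgeR's total degrees of freedom. These add degrees of freedom borrowed across genes to the residual ones. CPM uses TMM-scaled totals, and log2 CPM a prior count of 2. A count of 0 allows up to 3 counts, which covers counting error only. Exact permutation tests used scipy 1.17.1.

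The 46 members and all gene and marker lists were chosen with earlier results of these data known. Values are given per library for the 9 class I members, the 8 interferon-induced members with the smallest p, the 6 further ones with the highest mean CPM, the 6 other pathway genes with the smallest p, the constitutive proteasome subunits and Cyp19a1; the receptors and the remaining members were added as values only. Shared sequence was counted as words of 31 bases of GENCODE M21 transcripts. Of 12 marker lists, those not described with the results had no gene called, against 0.168% of all tested genes. Only 2 of 7 B cell, 3 of 6 dendritic cell and 2 of 6 neutrophil markers were tested, so few could be called. At an unadjusted p under 0.05, 1 of 8 endothelial markers was lower and 0 were higher. Summed CPM over control and knockout libraries was 401 to 995 and 311 to 822 (B cell), and 31.5 to 36.8 and 30.5 to 45.1 (dendritic cell). It was 31.3 to 35.0 and 33.3 to 44.5 (neutrophil, Ly6g at 0 throughout), and 493 to 903 and 650 to 819 (endothelial). For stromal progenitor markers it was 2980 to 3490 and 3050 to 3760, and for mesothelial markers 67.4 to 142 and 82.3 to 150. Red blood cell markers summed to 2990 to 6640 and 2850 to 4850. Alternatives were DESeq2-style (RLE) factors, no low-count filter, a total of at least 80 counts, DESeq2 1.42.0, limma-voom (limma 3.58.1) with quality weights, a replicate block and leaving out each library.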

Additional observations from a re-analysis of the deposited data

Results flagged for a closer look

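In 4 of 70 groups of 4 libraries examined, the highest or lowest library stood apart from the others by a larger share of the group's range than Dixon's 95% limit for 4 samples. Chance gives about 1 in 20, or 3.5 groups. Tap1 was 12.82 CPM in control replicate 4, where the other controls were 20.5 to 21.53 CPM and the knockouts 19.23 to 30.26 CPM (gap 0.882 of the range). Trim30a was 23.27 CPM in knockout replicate 3, where the other knockouts were 21.19 to 21.52 CPM and the controls 12.11 to 18.85 CPM (gap 0.84). Gbp2 was 65.03 CPM in control replicate 3, where the other controls were 37.82 to 41.23 CPM and the knockouts 37.09 to 63.95 CPM (gap 0.875). Cyp19a1 was 2.25 CPM in control replicate 3, where the other controls were 0.4184 to 0.6997 CPM and the knockouts 0 to 1.614 CPM (gap 0.846).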

How the results depend on the processing

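No member and no other pathway gene passed an adjusted p of 0.05 under any of the 14 alternatives, where the smallest adjusted p of a member was 0.451 (limma-voom) to 0.977 (without control replicate 3). The 2 members higher at an unadjusted p under 0.05 became 1 with DESeq2 (Eif2ak2) and 0 to 3 when 1 library was left out: none without control replicate 3, 1 without control replicate 4, knockout replicate 2 or knockout replicate 3, and 3 without knockout replicate 1, with Iigp1 added. The count of 0 lower became 1, Irgm1, without the low-count filter and with limma-voom, and was 0 to 1 when 1 library was left out (1 without control replicate 4 or knockout replicate 4). The median log2 fold change was -0.009 to 0.179 for the interferon-induced genes and -0.028 to 0.166 for the class I genes when 1 library was left out, and their difference, -0.021, was -0.077 to 0.13. Of 448 values of 32 named genes, 432 kept their direction and side of the threshold and 16 changed sign, all when 1 library was left out, in 10 genes whose log2 fold change was at most 0.182 in size: Psmb8 ran from -0.104 to 0.166, Psmb9 from -0.07 to 0.323, Psmb10 from -0.021 to 0.469, Tap2 from -0.028 to 0.169, B2m from -0.136 to 0.004, H2-D1 from -0.103 to 0.005, Gbp7 from -0.046 to 0.111, Ddx58 from -0.053 to 0.092, Stat2 from 0.00 to 0.311 and Psmb7 from -0.087 to 0.024. Over all genes, 21 were called; without the low-count filter 58, with DESeq2 53 and with 1 library left out 4 to 43.

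Deviations from the group means correlated between same-numbered control and knockout libraries at 0.25, -0.062, -0.006 and -0.241 for numbers 1 to 4. The labels give these libraries only a shared number, and the correlations cannot exclude a pairing. With the replicate block no member was called (0, smallest adjusted p 0.842), 6 genes were called in all, Eif2ak2 and Trim30a stayed the 2 members higher at an unadjusted p under 0.05 with 0 lower, and the difference of medians was 0.015; number 1 was the only one whose libraries correlated best with each other.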

Other observations

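Among the further interferon-induced genes, the near-identical GTPase genes Tgtp1 and Tgtp2 had nearly all of their estimated counts on 1 of the 2 genes in each library. Tgtp1 had 41.7, 17.5 and 36.1 CPM in control replicate 3, knockout replicate 3 and knockout replicate 4, where Tgtp2 was at or near 0. In the other 5 libraries Tgtp2 had 12.1 to 31.1 CPM and Tgtp1 at most 0.115 CPM. Their sum, 24.2 ± 14.3 CPM in control and 24.5 ± 10.8 CPM in knockout (SD, n = 4), differed between the genotypes by less than the spread between replicates. The 2 genes share 2594 words of 31 bases, out of 3117 in Tgtp1 and 2908 in Tgtp2. The level of either gene alone is thus uncertain, and only the sum is read here. Why the counts fell on 1 gene or the other was not tested.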
